A study of Mus musculus with 8 samples.

Results

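The cells described here are chondrocytes that carry Indian hedgehog (Ihh) mRNA but little type X collagen (Col10a1) mRNA, the pattern of the prehypertrophic zone of cartilage. They were selected on measured counts in single-cell RNA sequencing of mouse femur. A cell had to hold at least 40 unique molecular identifiers (UMIs, each 1 captured transcript) of Acan, Hapln1 and Matn3 together per 10000 UMIs, at least 2 UMIs of Ihh, and fewer than 10 UMIs of Col10a1 per 10000. Of 45328 cells that held 500 to 6000 genes and at most 25% mitochondrial UMIs, 14577 passed the cartilage threshold, and 1119 of these passed the whole rule. These 1119 Ihh chondrocytes were 2.47% of all cells and 7.68% of the cartilage cells.

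All cells came from the femur of female C57BL/6 mice that were 12 weeks old, and the labels name no transgene. In the Control group the bone was unfractured. In the Fracture group it had been fractured at 10 weeks by three-point bending, held with an intramedullary nail, and taken at day 14 after fracture. Both groups had been depleted of blood cells with magnetic beads, and both held 4 droplet libraries. The titles number the samples of a group 1 and 2, each with 2 replicates. Each such number is called a preparation here and each replicate a library. The labels do not say whether the 2 libraries of a preparation came from a single cell suspension. The Ihh chondrocytes numbered 132 and 58 in Control preparations 1 and 2, and 484 and 445 in Fracture preparations 1 and 2.

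Ihh is a secreted signal of chondrocytes that are leaving the cell cycle and are about to enlarge. It acts through Patched and Smoothened on nearby proliferating cells and perichondrium, where it induces Ptch1, Gli1 and Hhip, and it raises the level of parathyroid hormone-related protein (PTHrP, gene Pthlh). PTHrP acts back through its receptor Pth1r, which is most abundant in prehypertrophic cells, and delays the step to hypertrophy, in which cells begin to make type X collagen, then matrix proteases and mineral. The fracture callus forms such cartilage anew, whereas in adult unfractured bone it remains in the growth plate.

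The libraries held 56543151 to 89126291 UMIs, and the Ihh chondrocytes had a median depth of 20429 and 23782 UMIs per cell in Control and of 14924 and 16719 in Fracture. Any pair of libraries shared at most 23 barcodes, and at most 1 barcode of an Ihh chondrocyte. Both libraries of Control preparation 1 listed no gene whose symbol begins with a capital U or with n-R5. The other 6 libraries listed 276 to 279 genes with U, and 319 to 328 of both kinds. The 367 genes of both kinds over all libraries were left out of every comparison of genes. RNA of cartilage was also found outside cartilage. As a background, endothelial cells were taken (5892 cells under the cartilage threshold with at least 3 UMIs of Cdh5, Pecam1 and Emcn and none of Ptprc), which should hold no cartilage transcripts. Of these, 1 of 2021 and 0 of 1373 cells held at least 2 Ihh UMIs in Control, and 17 of 1147 and 17 of 1351 did so in Fracture, or 1.48% and 1.26%. In Control this gate also held blood transcripts: the basophil genes Prss34 and Mcpt8 stood there at 1757 and 2336 CPM and at 1075 and 1384 CPM, against at most 31.2 CPM in Fracture, and Cdh5 was found in 62.6% and 80.8% of its cells thinned to 5000 UMIs in Control and in 95.8% and 95.3% in Fracture. Control levels called endothelial below include these cells. In Fracture, single gated cells held up to 17 and 14 Ihh UMIs and up to 1077 and 1027 Col10a1 UMIs. Fracture levels called endothelial below include those cells. The gated cells were shallower than the Ihh chondrocytes, with medians of 5288 and 6048 UMIs in Control and 7301 and 7862 in Fracture.

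Values that chose the cells are given as a description, with no test. An Ihh chondrocyte held 2 to 41 Ihh UMIs with a median of 4, and 307 cells (27.4%) held exactly 2, the lowest number the rule admits. Summed over cells, Ihh stood at 2.74 and 2.75 UMIs per 10000 in the Control preparations and at 3.31 and 3.40 in the Fracture preparations, against 0.0107 and 0.00363 in Control and 0.143 and 0.136 in Fracture endothelial cells. Just below the threshold, 695 cartilage cells with low Col10a1 held 1 Ihh UMI. The cartilage threshold was rarely near: the sum of Acan, Hapln1 and Matn3 had a median of 170.3 UMIs per 10000, 27 members lay between 40 and 60, and 11 cells that met the other conditions lay between 30 and 40.

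The Col10a1 condition fell at different places in the groups. In Control, 65 of 132 and 34 of 58 Ihh chondrocytes held no Col10a1 UMI, whereas in Fracture 14 of 484 and 9 of 445 did. The median was 0.281 and 0 UMIs per 10000 in Control and 3.45 and 3.48 in Fracture. Endothelial cells of the same preparations had medians of 0 and 0 in Control and 2.93 and 3.03 in Fracture. The median Col10a1 level of Fracture members was therefore close to that of the Fracture endothelial gate. Summed over cells, that gate stood higher, at 11.4 and 12.4 UMIs per 10000 beside 3.99 and 4.05 in Fracture members. Single gated cells reached 569 and 600. Near the upper limit, 275 members held 5 to 10 UMIs per 10000, 266 of them in Fracture, and 157 cells just outside held 10 to 15. Most Ihh-positive cartilage was above the limit. Of 5406 cartilage cells with at least 2 Ihh UMIs, the Ihh chondrocytes were 20.7% and the other 4287 held at least 10 Col10a1 UMIs per 10000.

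**Figure D1:**
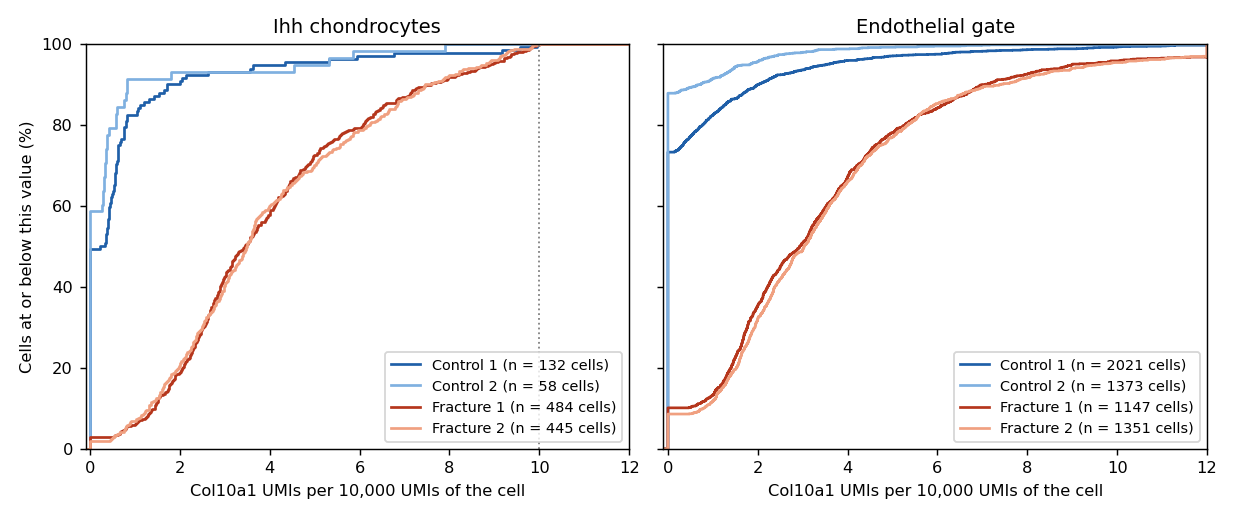
Cumulative share of cells (%, vertical axis) by Col10a1 UMIs per 10000 UMIs of the cell (horizontal axis, which ends at 12) in Ihh chondrocytes (left) and in endothelial cells (right), with 1 line for each preparation and the limit of the rule at 10 as a dotted line. The Control lines begin high, at the 49.2% and 58.6% of members with no Col10a1, while the Fracture lines of both panels run close to each other.

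Of the markers Ihh, Pth1r and Acan, only Pth1r was not used by the rule and can check the label. In cells thinned to 5000 UMIs, Pth1r was found in 100% and 100% of Ihh chondrocytes in Control and in 99.8% and 99.8% in Fracture, with 11.1% and 6.93% of endothelial cells in Control and 26.3% and 29.3% in Fracture. Its presence did not set these cells apart from other cartilage, for it was found in 88.0% to 95.6% of cartilage cells with no Ihh UMI and in 97.4% to 99.7% of those above the Col10a1 limit. Acan stood at 4630, 4289, 7405 and 7289 CPM (counts of a gene scaled to a common total per preparation) in Control 1, Control 2, Fracture 1 and Fracture 2. Its presence was fixed by the rule. The chondrocyte genes Col2a1 (66070 to 73760 CPM) and Sox9 (912 to 1516 CPM) were present in all 4 preparations. The Ihh gene lies at chr1:74945315-74951672 on the minus strand (GENCODE M21, GRCm38). The 100 bases before its start in RefSeq (GRCm38.p6, chr1:74951673-74951772, minus strand), shown because Ihh defines the cells, hold neither a TATA box in the letters TATAAA nor the RUNX motif TGTGGT on either strand:
Ihh: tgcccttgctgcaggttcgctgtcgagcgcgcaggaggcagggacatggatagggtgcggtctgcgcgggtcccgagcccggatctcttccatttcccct

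Beside cartilage cells with no Ihh UMI and low Col10a1 (7055 cells), the Ihh chondrocytes held more Cdkn1c, Ibsp, Alpl and Pth1r and fewer mitotic transcripts. Since Ihh chose the cells from the same libraries, these are descriptions of level, in CPM before scaling between preparations, with no test. Of 2632 genes with at least 50 CPM in either class, 32 were at least 2-fold higher and 58 at least 2-fold lower in all 4 preparations. The gene with the highest lowest ratio was Cdkn1c, the inhibitor of cyclin-dependent kinases also called p57, at 1138, 1037, 1172 and 994 CPM in Ihh chondrocytes and 148, 109, 223 and 230 CPM in Ihh-free cells. Its log2 ratio (of CPM + 1) was 2.11 to 3.24 over the preparations.

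Among the 20 genes that led this list were several with known parts in the growth plate. Ibsp, which encodes bone sialoprotein, a matrix protein of mineralising tissue, reached 3511 to 7930 CPM beside 344 to 2674 CPM. Alpl, the phosphatase that frees phosphate for mineral, stood at 1249 to 1848 CPM beside 236 to 510 CPM. Sgms2, a sphingomyelin synthase, stood at 957 to 2481 CPM beside 64.2 to 712 CPM. The list also held Mef2c, a transcription factor that drives hypertrophy (520 to 813 CPM beside 140 to 212 CPM), and the channel gene Panx3 (881 to 1063 CPM beside 195 to 372 CPM). Pth1r itself came in as the last of the 20, at 4788, 4652, 3154 and 2834 CPM beside 1406, 1466, 1320 and 1234 CPM. The ligand gene Bmp2, the glutamate transporter gene Slc1a3 and Hpgd, which encodes an enzyme that inactivates prostaglandins, were further members. For Sgms2, Alpl, Mef2c and Panx3 both Control ratios exceeded both Fracture ratios, and the Ihh-free cells of Fracture held more of each transcript than those of Control. For Bmp2 the ratios of the groups overlapped. The genes of the PTHrP receptor pathway, Pth1r among them, summed to 6106, 5979, 4240 and 3868 CPM in Ihh chondrocytes. In cartilage cells above the Col10a1 limit they summed to 6199, 6219, 5417 and 5277 CPM. In cells thinned as above, Ibsp was found in 49.2%, 53.4%, 76.8% and 79.7% of Ihh chondrocytes. Above the Col10a1 limit its shares were 90.4%, 92.2%, 95.6% and 95.1%. For Panx3 the Ihh chondrocytes had the higher share in each preparation.

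The 8 genes at the other end were mostly mitotic. Top2a, the topoisomerase of dividing cells, stood at 17.6, 10.9, 23 and 25.2 CPM in Ihh chondrocytes and at 188, 200, 153 and 144 CPM in Ihh-free cells. Mki67 stood at 12 to 18.7 CPM beside 96.3 to 144 CPM, and Cenpf, Tpx2 and Prc1, genes of the mitotic spindle and kinetochore, behaved alike. The other three were Apoe, which encodes a lipid carrier, the Wnt transcription factor gene Lef1 and Nav2. The Ihh-free cells were the shallower class, with medians of 13465 and 17878 UMIs in Control and 11416 and 11986 in Fracture.

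**Figure D2:**
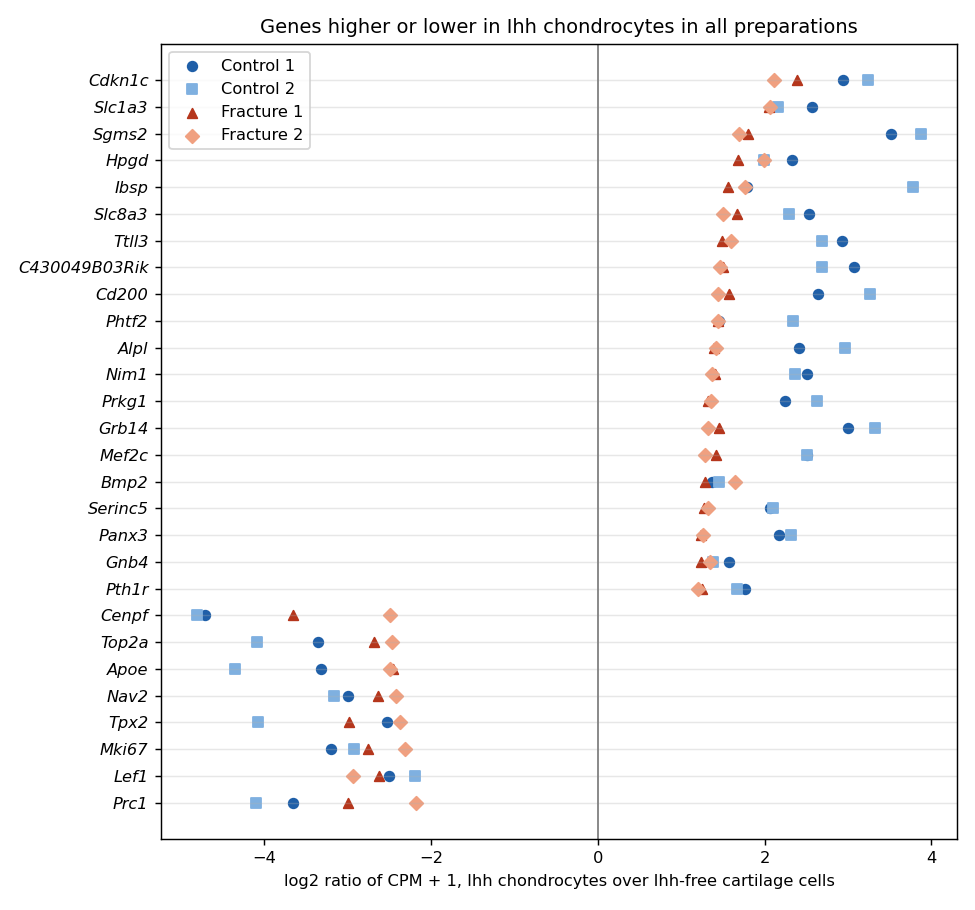
Log2 ratio of CPM + 1 between Ihh chondrocytes and Ihh-free cartilage cells (horizontal axis) for the 20 genes higher and the 8 genes lower in all 4 preparations, with 1 point for each preparation. Cdkn1c leads at 2.11 to 3.24, and the mitotic genes lie between -4.80 and -2.18.

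Beside Col10a1 cartilage cells (5708 cells at or above 10 Col10a1 UMIs per 10000), 22 of 2482 genes were at least 2-fold higher in all 4 preparations and 40 at least 2-fold lower. Col12a1, a collagen that lies on the surface of fibrils, stood at 883 to 999 CPM beside 159 to 310 CPM, and Epyc, the leucine-rich proteoglycan epiphycan, at 357 to 769 CPM beside 134 to 366 CPM. Ppa1, which splits the mineral inhibitor pyrophosphate inside cells, stood at 9885, 13150, 3173 and 2897 CPM beside 3182, 2602, 898 and 877 CPM. The Wnt agonist genes Rspo3 and Rspo4, the Wnt receptor gene Fzd9, Gdf10 of the BMP family and Tgfbi were also among the 20 named.

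Lower in Ihh chondrocytes than in Col10a1 cells were Mmp13, the collagenase of late hypertrophic cartilage (9.37, 4.35, 126 and 134 CPM beside 170, 197, 522 and 513 CPM), Aldh1a3, which makes retinoic acid, Tcf7l2, a transcription factor of Wnt signalling, and Loxl4. The gene with the lowest highest ratio was Nt5dc1, at 11.8 to 14.5 CPM beside 122 to 198 CPM. Nt5dc1 (chr10:34288288-34418552, minus strand) spans the whole of Col10a1 (chr10:34389981-34397085, plus strand), and the sources used here do not state that the counting used strand, so reads of the pair cannot be told apart with certainty.

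The Hedgehog targets were found less often in the cells that carry the ligand than in Ihh-free cartilage. In cells thinned to 5000 UMIs, Hhip, the target that binds and holds back Hedgehog ligands, was found in 3.85% and 5.17% of Ihh chondrocytes in Control and in 1.04% and 1.58% in Fracture, with 0% to 0.843% of endothelial cells. In Ihh-free cells the shares were 42.2% and 38.8% in Control and 7.43% and 6.67% in Fracture. Ptch1, the receptor and a target, was found in 3.45% to 8.78% of Ihh chondrocytes and 13.3% to 19.7% of Ihh-free cells, and Gli1 in 0% to 4.50% and 8.18% to 10.9%. Endothelial cells gave 1.31% to 2.84% for Ptch1 and 0.243% to 0.912% for Gli1. Col10a1 cartilage cells gave 1.72% to 5.23% for Ptch1, 0% to 1.17% for Gli1 and 0.381% to 1.42% for Hhip. Low shares of the targets were thus not particular to the Ihh chondrocytes. The shares rest on depth. Without thinning, Ptch1 was found in 20.9% to 29.3% of Ihh chondrocytes and 26.5% to 44.9% of Ihh-free cells, Gli1 in 8.62% to 12.1% and 17.9% to 27.5%, and Hhip in 2.48% to 11.4% and 11.2% to 61.5%. Pthlh had 0 UMIs in the Control Ihh chondrocytes, which allows up to 0.741 CPM over the group, and stood at 1.39 and 0.404 CPM in Fracture. For each of the 3 targets the share was lower in Ihh chondrocytes than in Ihh-free cells in each preparation, with and without thinning. The choice of cells does not allow a test.

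**Figure D3:**
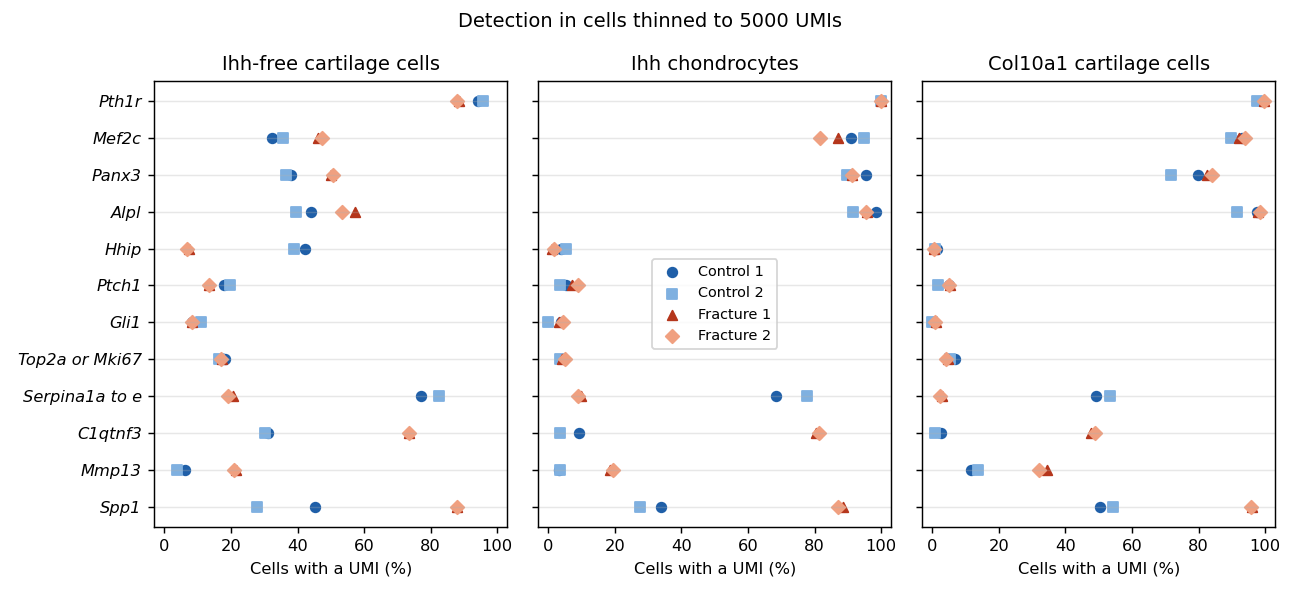
Share of cells with at least 1 UMI of a gene (%, horizontal axis) after each cell was thinned to 5000 UMIs, in Ihh-free cartilage cells, Ihh chondrocytes and Col10a1 cartilage cells, with 1 point for each preparation. Mef2c, Panx3 and Alpl rise from the left to the middle panel and remain high at the right, while Hhip is found mainly at the left, at 42.2% and 38.8% in Control.

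The share of Ihh chondrocytes in cartilage depended on where the Col10a1 limit was set. With the limit at 10 they were 7.14% and 10.0% of the cartilage cells in Control and 8.15% and 7.17% in Fracture, or 8.58% ± 2.04 and 7.66% ± 0.689 (SD, n = 2). The groups overlapped, and a two-sided exact permutation test over preparations gave p = 1. The difference (Fracture minus Control) was -0.918 percentage points and turned to 0.523 without Control preparation 2. Of all cells they were 1.03% and 0.732% in Control and 4.08% and 3.48% in Fracture, or 0.884% ± 0.214 and 3.78% ± 0.423 (SD, n = 2), and these did not overlap (exact permutation p = 0.333, the smallest that 2 against 2 allows). With the Col10a1 limit at 5 per 10000 the share of cartilage was 8.16% in Control and 5.47% in Fracture. With the limit at 2, chosen after seeing the data, it was 7.88% and 1.499%, a difference of -6.38 percentage points. These limits act on the rule's own value, so their shares are descriptions. The share of all cells has every kept barcode as its base, and the deposited barcodes differed between the groups. The lowest barcode held 1, 1, 1 and 3 UMIs in the Control libraries and 1981, 2132, 2724 and 1929 in the Fracture libraries. The part of this difference and of the bead depletion in the share of all cells was not tested. With the Col10a1 limit at 2 the difference over all cells turned slightly negative, at -0.0681 percentage points (Fracture minus Control).

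The next shares rest on the rule's own values and are descriptions, with no test. Of cartilage cells with at least 2 Ihh UMIs, 38.3% and 39.2% met the Col10a1 condition in Control and 19.98% and 17.9% in Fracture. The cells with at least 2 Ihh UMIs were 18.6% and 25.6% of cartilage in Control and 40.8% and 40.1% in Fracture. Neither pair of ranges overlapped, and the Col10a1 found in Fracture endothelial cells, given above, moves with the first of these shares. Its part in the result was not tested.

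Top2a and Mki67 mark dividing cells. After thinning to 2000 UMIs, Top2a or Mki67 was found in 1.52% and 3.45% of them in Control and in 3.10% and 4.27% in Fracture, or 2.48% ± 1.37 and 3.68% ± 0.828 (SD, n = 2, exact permutation p = 0.667). Ihh-free cartilage cells gave 14.1% and 13.0% in Control and 13.6% and 13.1% in Fracture. Without thinning, the shares of Ihh chondrocytes were 15.2% and 18.97% in Control and 10.7% and 10.3% in Fracture, the deeper Control cells then giving the higher values. Pth1r was found in 97.0% and 100% of Ihh chondrocytes in Control and in 97.9% and 96.6% in Fracture after thinning to 2000 UMIs. The exact permutation test for Pth1r gave p = 0.667.

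Gene levels were then compared between Fracture and Control on UMI counts summed over the Ihh chondrocytes of each preparation. The test was edgeR's quasi-likelihood test, with Benjamini-Hochberg adjustment over all genes tested. The fractured femur held callus beside the growth plate, and the labels do not say from which a Fracture cell came. A difference of source therefore cannot be told apart from a difference between the groups. A gene is said to have risen or fallen where its adjusted p was under 0.05. The 5 genes of the rule were left out. Of 11293 genes tested, 2886 changed (25.6%), of which 1581 rose (14%) and 1305 fell (11.6%), and the median log2 change was -0.0055. Among all genes tested, 64.6% had preparations that did not overlap between the groups. With 2 preparations a group, and no statement in the labels that they came from separate animals, the p-values measure only the spread between preparations. Over 19 alternative settings, 799 of the 2886 genes were called in every one. Without Fracture preparation 1 or 2 the count of called genes was 1901 or 1920, and with DESeq2 it was 1458.

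Among the 12 genes named for the largest rises was Col3a1, which encodes type III collagen. It stood at 2.57 and 1.41 CPM in Control and at 2035 and 2130 CPM in Fracture, a log2 change of 9.82 ± 0.21 (SE, adjusted p = 3.15e-08). Without Control preparation 1 the change was 10.44, and without Control preparation 2 it was 9.586. The Control level of Col3a1 rests on few UMIs. Endothelial cells held 33 CPM of Col3a1 in Control and 813 CPM in Fracture as group means. The part of this level in the rise was not tested. C1qtnf3, a secreted protein of chondrocytes also called cartducin, stood at 20.6 and 14.1 CPM in Control and at 1667 and 1879 CPM in Fracture, a log2 change of 6.55 ± 0.18 (adjusted p = 1.33e-07). In endothelial cells C1qtnf3 was at 0.579 CPM in Control and 38.4 CPM in Fracture. Cell by cell, after thinning to 5000 UMIs, it was found in 9.23% and 3.45% of Control and 80.3% and 81.3% of Fracture Ihh chondrocytes. Rbp4, the carrier of retinol, stood at 12.5 and 14.1 CPM in Control and at 820 and 758 CPM in Fracture, a log2 change of 5.84 ± 0.15 (adjusted p = 9.37e-08), with 3.87 and 102 CPM in endothelial cells.

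Postn, encoding periostin, stood at 6.61 and 0 CPM in Control and at 255 and 293 CPM in Fracture, a log2 change of 5.92 ± 0.35. Aspn, encoding asporin, a proteoglycan that binds collagen, stood at 2.57 and 0 CPM in Control and at 187 and 204 CPM in Fracture. Lox, the enzyme that cross-links collagen, stood at 18 and 13.4 CPM in Control and at 338 and 358 CPM in Fracture. For each of them the groups were far apart, and the levels in Fracture endothelial cells were 113, 66.8 and 109 CPM. Tnn, encoding tenascin N, Moxd1, Sbsn, Mt1, which encodes a metal-binding metallothionein, and the protease inhibitor gene Slpi rose by log2 values between 4.85 and 6.30. Some of these folds rest on few Control counts, mostly of preparation 1. Tnn stood at 4.04 and 0.703 CPM in Control, Mt1 at 8.08 and 0.703 CPM and Slpi at 6.24 and 0.703 CPM, and without Control preparation 1 their log2 changes were 7.64, 8.27 and 7.42. Postn and Aspn were at 0 in Control preparation 2, so without preparation 1 they have no fold. The twelfth gene, 1520401A03Rik (chr17:23704488-23722783, minus strand), had no UMI in the Control Ihh chondrocytes and stood at 155 and 200.5 CPM in Fracture, at least 240.4-fold higher than a floor of 3 counts over the Control group.

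**Figure D4:**
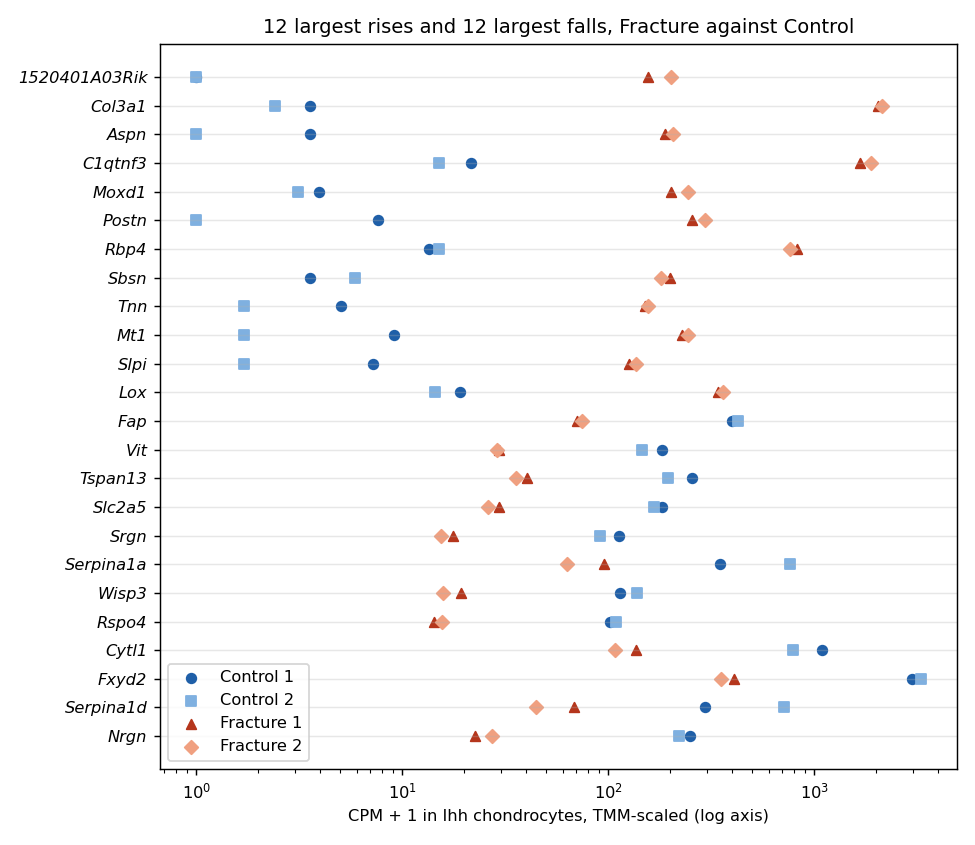
CPM + 1, scaled by TMM, in Ihh chondrocytes (horizontal log axis) for the 12 genes that rose most and the 12 that fell most, with 1 point for each preparation. The groups do not overlap for any of the 24 genes, as the rule that chose them requires, while the Control points of Mt1, Slpi, Postn, Aspn, Tnn, Serpina1a and Serpina1d lie apart from each other.

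The largest falls were in genes of varied function. Fxyd2, which encodes a subunit that tunes the sodium pump, stood at 2969 and 3300 CPM in Control and at 406 and 351 CPM in Fracture, a log2 change of -3.12 ± 0.13 (adjusted p = 1.3e-06). Its level in endothelial cells was 5.92 CPM in Control and 9.42 CPM in Fracture. Cytl1, a small secreted protein made by chondrocytes, stood at 1090 and 788 CPM in Control and at 135 and 107 CPM in Fracture, a log2 change of -3.03 ± 0.18. Both were abundant Control transcripts, and their groups did not overlap, as the rule that chose the named genes requires. Fap, a serine protease of the cell surface, stood at 396 and 425 CPM in Control and at 69.3 and 73.7 CPM in Fracture, and Slc2a5, the fructose transporter, at 182 and 165 CPM against 28.6 and 25 CPM. The Wnt agonist gene Rspo4 stood at 101 and 108 CPM against 13.2 and 14.5 CPM, Wisp3 at 113 and 137 CPM against 18.3 and 14.8 CPM, and Vit, encoding the matrix protein vitrin, at 181 and 144 CPM against 28.3 and 27.8 CPM. Tspan13, a tetraspanin, stood at 255 and 195 CPM against 39.3 and 34.6 CPM. Endothelial cells held 132 CPM of it in Control and 152 CPM in Fracture as group means, the latter above the Fracture Ihh chondrocytes.

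A pair of genes that fell were more abundant in the endothelial gate than in Ihh chondrocytes in both groups. Nrgn, a calmodulin-binding protein known from neurons and platelets, stood at 248 and 219 CPM in Control and at 21.5 and 26.2 CPM in Fracture, while the endothelial gate, which held basophil transcripts in Control, stood at 1461 and 52.9 CPM as group means. Srgn, the granule proteoglycan serglycin of blood and endothelial cells, stood at 112 and 90 CPM against 16.7 and 14.4 CPM, beside 1803 and 326 CPM in the same gate. The part of these outside levels in the falls was not tested.

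Of the 5 alpha-1-antitrypsin genes, 4 fell, beside 11.6% over all genes tested. Serpina1a stood at 348 and 758 CPM in Control and at 93.8 and 62 CPM in Fracture (log2 change -2.88 ± 0.33), and Serpina1d at 294 and 710 CPM against 67 and 43.4 CPM. Without Control preparation 2 the log2 changes were -2.23 for Serpina1a and -2.48 for Serpina1d, beside -2.88 and -3.24 with it. Serpina1b and Serpina1c fell by 1.39 and 2.08 on the log2 scale, and Serpina1e, at 0.403 to 2.94 CPM, did not pass the test. These genes are near-identical copies, so how reads were divided among them is uncertain. Counted together, Serpina1a to e were found in 68.5% and 77.6% of Control Ihh chondrocytes thinned to 5000 UMIs and in 9.75% and 9.01% of Fracture ones, with 2.36% to 4.22% of endothelial cells.

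All 24 of these genes kept their direction in each of the 19 alternatives, and their call in those that kept 2 preparations a group. They were chosen as the largest called changes, and most alternatives use largely the same cells, so this is a description. RefSeq promoters, 300 bases from 250 before to 50 after a start, were matched for 11 of the 12 genes that rose and for 8 of the 12 that fell. The TATA box TATAAA, or TTTATA on the other strand, was in 13.6% of 32851 such promoters, in 5 of 17 promoters (29.4%) of the risen genes and in 1 of 9 (11.1%) of the fallen genes. The RUNX motif TGTGGT, or ACCACA, was in 16.8% of all promoters, in 2 of 17 (11.8%) and in 4 of 9 (44.4%). These are counts of letters, not of binding sites. The 100 bases before 1 RefSeq start of the gene are shown for a pair of risen genes that carry a TATA box close to the usual distance from the start and for Chad, a fallen cartilage gene described below, with the box in capitals, 28, 26 and 28 bases before the start (GRCm38.p6):
Rbp4 (chr19:38124812-38124911, minus strand): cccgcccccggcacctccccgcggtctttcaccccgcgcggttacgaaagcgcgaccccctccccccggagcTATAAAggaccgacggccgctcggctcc
Postn (chr3:54361007-54361106, plus strand): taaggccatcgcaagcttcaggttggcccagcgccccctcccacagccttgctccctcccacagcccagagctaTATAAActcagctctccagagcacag
Chad (chr11:94564947-94565046, plus strand): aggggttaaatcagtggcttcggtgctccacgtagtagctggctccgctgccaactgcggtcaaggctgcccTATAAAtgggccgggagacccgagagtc

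The PTHrP receptor was lower in Fracture. Of 19 Hedgehog pathway genes tested, 3 rose and 2 fell, close to the 14% and 11.6% over all genes, with a list median log2 change of 0.03. Cdon, a co-receptor, rose from 9.55 and 14.8 to 29.6 and 24.8 CPM, Scube1 and Scube3, which help release of the ligand, rose too, and Disp1, which exports it, and Ift88 of the cilium fell. Disp1 was called in 4 of the 19 alternatives, Ift88 in 10, Scube1 in 12 and Scube3 in 17. Ptch1 stood at 12.1, 16.9, 17.4 and 18.3 CPM (adjusted p = 0.347), and Gli1 and Hhip did not pass the test either. Of 16 genes of the PTHrP receptor pathway, 2 rose and 6 fell. Pth1r fell from 4692 and 4513 to 3222 and 2919 CPM, a log2 change of -0.66 ± 0.11 (adjusted p = 0.00339), and Mef2c from 786 and 788 to 573 and 536 CPM, a log2 change of -0.58 ± 0.10 (adjusted p = 0.00389). Hdac4, which holds Mef2c back, fell from 21.7 and 19.7 to 12.1 and 13.3 CPM, was called in 13 of the 19 alternatives, and Fracture endothelial cells held 261% of the level of Ihh chondrocytes.

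Of 28 transcription factors of the chondrocyte programme tested, 7 rose, 12 fell and 9 did not pass the test (median -0.21), beside 14% risen and 11.6% fallen over all genes. Sox9, the master regulator, fell from 1516 and 1314 to 948 and 912 CPM, a log2 change of -0.68 ± 0.12, and its partner Sox5 from 154 and 141 to 89.3 and 77.7 CPM. Foxa2, a factor of hypertrophic differentiation, fell from 85.5 and 81.6 to 24.3 and 21.9 CPM, a log2 change of -1.93 ± 0.12 (adjusted p = 8.36e-06). Runx3 and Dlx5 fell by 0.75 and 0.90 on the log2 scale, and Runx2 by 0.37, the last called in 12 of the 19 alternatives. Among the risen factors, Nfatc2 went from 39.3 and 20.4 to 87.5 and 104 CPM, and Erg, known from articular cartilage but also from endothelium, from 2.94 and 2.11 to 17.6 and 15.1 CPM, with 531% of that level in Fracture endothelial cells.

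The main collagen of cartilage held its level while minor matrix genes moved both ways. Of 38 cartilage matrix genes tested, 9 rose and 14 fell (median -0.15), beside 14% and 11.6% over all genes. Col2a1 stood at 73760 and 66070 CPM in Control and at 70050 and 70660 CPM in Fracture (log2 change -0.06 ± 0.12, adjusted p = 0.741), and Comp at 14940 to 17570 CPM (adjusted p = 0.682). Chad, encoding chondroadherin, a leucine-rich protein that binds chondrocytes to collagen, fell from 7380 and 8686 to 1516 and 1660 CPM, a log2 change of -2.41 ± 0.13 (adjusted p = 5.11e-06). Col9a1, Col9a3 and Col27a1 fell by 0.43, 0.41 and 0.66 on the log2 scale, the first called in 16 and the second in 14 of the 19 alternatives. Matn4, a matrilin, rose from 74.2 and 63.3 to 467 and 391 CPM, and Smoc2 from 48.5 and 50.6 to 504 and 495 CPM, a log2 change of 3.27 ± 0.11. Their levels in Fracture endothelial cells were 8.25% and 11.4% of those in Fracture Ihh chondrocytes.

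Genes of hypertrophy and mineral were split, with 7 of 25 risen and 8 fallen, beside 14% and 11.6% over all genes. Ibsp rose from 3441 and 4571 to 8054 and 8166 CPM, a log2 change of 0.95 ± 0.15 (adjusted p = 0.00187). In cells thinned to 5000 UMIs Ibsp was found in 49.2% and 53.4% of Ihh chondrocytes in Control and 76.8% and 79.7% in Fracture, and in endothelial cells in 24.5% and 15.8% and in 65.2% and 66.5%, whose part in the rise was not tested. Also risen was Cdkn1a, which encodes the cell cycle inhibitor p21, from 220 and 146 to 489 and 481 CPM. Alpl fell from 1687 and 1793 to 1370 and 1286 CPM and was called in 16 of the 19 alternatives. Mmp13 rose from 9.18 and 4.22 to 129 and 138 CPM, but endothelial cells of Fracture held 335% of that level, and the share of cells with a UMI, 18.5% and 19.4%, was below the 21.7% and 24.1% of endothelial cells, so this share was not above that outside cartilage and is not read as expression. The source of the Mmp13 counted in Ihh chondrocytes was not tested. Spp1, the matrix protein osteopontin, stood at 281, 1663, 2973 and 3743 CPM (adjusted p = 0.0616).

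Of 30 Wnt genes tested, 12 rose and 5 fell (median 0.68), against 14% and 11.6% over all genes. Frzb, a secreted Wnt antagonist of cartilage, rose from 83 and 48.5 to 483 and 447 CPM, a log2 change of 2.696 ± 0.188 (adjusted p = 1.75e-05). Sfrp5, of the same family, held 3 UMIs in Control, all in preparation 1, and 369 and 490 UMIs in Fracture, a ratio of 77.3 with a 95% counting interval of 26.4 to 375.3. The agonist Rspo3 fell from 171 and 147 to 64.3 and 73.4 CPM, and Wnt4 by 0.78 on the log2 scale. The receptor genes Fzd1 and Fzd9 and the co-receptor gene Lrp4 rose as well, and Fracture endothelial cells held 351% of the Lrp4 level of Ihh chondrocytes.

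Of 29 BMP genes, 8 rose and 7 fell (median 0.18). Over all genes 14% rose and 11.6% fell, against which the counts of the 4 growth factor lists here are to be read. Noggin (Nog), a BMP antagonist, fell from 114 and 127 to 29.7 and 40.1 CPM, whereas the antagonist Chrdl2 rose from 2.20 and 0.703 to 55.6 and 59.2 CPM and the decoy receptor Bambi from 90 and 78.8 to 333 and 331 CPM, with 90.4% of that level in Fracture endothelial cells. The ligand Bmp8a fell from 74.2 and 72.4 to 11 and 10.5 CPM, a log2 change of -2.84 ± 0.13. In the FGF list 3 of 10 rose and 1 fell. Fgf1 fell from 19.5 and 23.9 to 2.64 and 3.63 CPM, and Fgfr3, the receptor that restrains chondrocyte division, rose by 0.38 on the log2 scale, called in 8 of the 19 alternatives. In the IGF list 6 of 13 rose and 1 fell, among them Igfbp7 (413 and 498 CPM to 2308 and 2207 CPM) and Igf2 (1.47 and 0.703 CPM to 11.4 and 14.7 CPM), and Stc2 fell by 1.36. Fracture endothelial cells held 231% and 51.0% of the Igfbp7 and Igf2 levels of Ihh chondrocytes. Of 19 TGF-beta genes, 6 rose and 4 fell. Inhba, the activin A subunit, rose from 1.10 and 0.703 to 49.7 and 41.6 CPM, a log2 change of 5.46 ± 0.33. Tgfbr3, a co-receptor, fell from 66.8 and 66.1 to 13.3 and 13.6 CPM, with 525% of that level in Fracture endothelial cells. The Control levels of Chrdl2, Igf2 and Inhba rest on few UMIs.

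Genes of collagen processing and secretion held many risen members. Of 20 genes of collagen modification tested, 13 rose and 2 fell (median 1.06), beside 14% and 11.6% over all genes. The share risen was the highest of the 25 lists, which were chosen with earlier results of these data known. Plod1, a lysyl hydroxylase, rose from 54 and 69.6 to 196 and 190 CPM (118% of that level in Fracture endothelial cells), Loxl2 from 72 and 77.4 to 199.5 and 195 CPM, and Pcolce, an enhancer of procollagen cleavage, from 73.8 and 51.3 to 525.5 and 543.8 CPM. Of 32 genes of protein folding and secretion in the endoplasmic reticulum, 15 rose and 1 fell (median 0.34). P4hb, a subunit of prolyl hydroxylase, rose from 599 and 587 to 1017 and 1052 CPM, and the chaperone gene Hsp90b1 by 0.60 on the log2 scale. Creb3l1, a factor that drives collagen secretion, rose from 56.5 and 47.8 to 108 and 130 CPM.

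Many genes of the glycolysis and hypoxia list rose as well, with 17 of 31 risen and 2 fallen (median 0.81). Ldha rose from 598 and 766 to 1240 and 1188 CPM, Gapdh from 442 and 573 to 991 and 873 CPM, and Pkm from 488 and 613 to 1227 and 1144 CPM. The glucose transporter gene Slc2a1 rose by 1.03 on the log2 scale. Of 68 genes of oxidative phosphorylation 10 rose and 3 fell (median 0.15), near the 14% risen over all genes. Of 84 ribosomal protein genes 6 rose and 3 fell (median 0.02), fewer than over all genes in both directions.

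Matrix of bone and fibrous tissue, inflammation and stress made the other large groups. Of 26 interstitial and osteoid matrix genes, 11 rose and 6 fell, again beside 14% and 11.6% over all genes. Col1a2 rose from 1705 and 243 to 12760 and 12690 CPM, and Col1a1 from 1646 and 131 to 10800 and 9999 CPM, with 59.1% and 87.8% of these levels in Fracture endothelial cells and Col1a1 called in 17 of the 19 alternatives. Bglap, encoding osteocalcin, fell from 2763 and 2577 to 883 and 798 CPM, and Fracture endothelial cells held 213% of the level of Fracture Ihh chondrocytes. Of 17 genes of inflammation, 9 rose and 1 fell. Ptgs2, the inducible enzyme of prostaglandin synthesis, rose from 1.47 and 0 to 85.2 and 99.4 CPM, a log2 change of 6.47 ± 0.34 (adjusted p = 4.22e-06), with 15.8% of that level in endothelial cells. Its Control level was 4 UMIs, all in preparation 1, so it has no fold without that preparation. Tnfaip6 rose from 1.47 and 0.703 to 39.7 and 37.9 CPM, its Control level also resting on few UMIs.

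Among immediate early and stress genes 1 of 24 rose and 10 fell (median -0.46). Ier2 fell from 1063 and 735 to 526 and 492 CPM and Jund from 773 and 834 to 524 and 444 CPM, while Fos stood at 2356, 1921, 1979 and 2041 CPM (adjusted p = 0.391). In the list of glucocorticoid and metal response, 3 of 13 rose, the metallothioneins Mt1 and Mt2 and Cdkn1a, and 5 fell, among them the glucocorticoid targets Tsc22d3 (log2 change -1.25 ± 0.18) and Ddit4 (-1.14 ± 0.18). Of 15 genes of the resting and articular zones 8 rose and 1 fell. Sfrp5, Erg, Abi3bp and Thbs4 were among the risen and Cytl1 was the one that fell, while Prg4 stood at 3.67, 1.41, 5.42 and 4.71 CPM and did not pass the test. In the proteases and inhibitors 8 of 26 rose, among them Mmp2 and Timp1, and 7 fell, 4 of them Serpina1 genes. MHC and interferon genes had 7 of 18 risen and 2 fallen, and cilium genes 3 of 14 and 2, the last near the 14% and 11.6% over all genes. In the cell cycle lists few genes passed the test, with 0 of 21 S phase genes risen and 1 fallen, and 3 of 27 G2 and M phase genes risen (Top2a, Cenpf and Cdk1, for which Fracture endothelial cells held 446% to 727% of the level of Ihh chondrocytes, called in 10, 9 and 17 of the 19 alternatives) and 1 fallen.

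**Figure D5:**
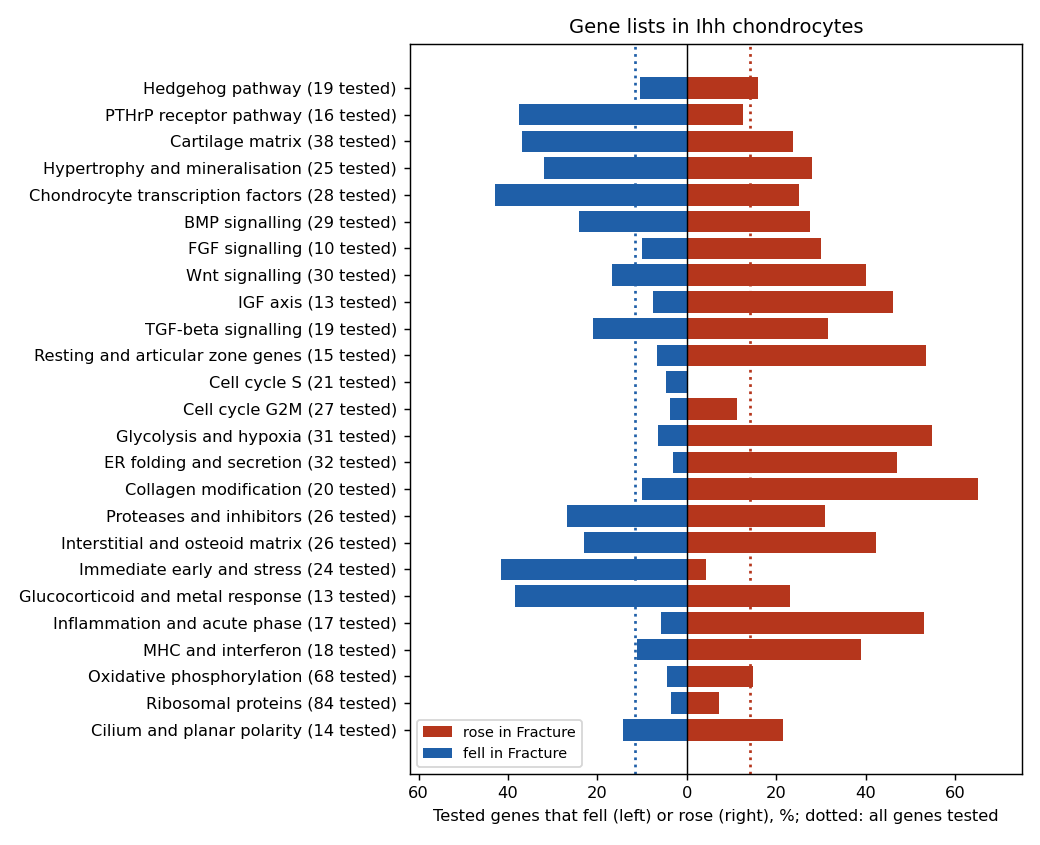
Share of the tested genes of each list that fell (left) or rose (right) in Fracture against Control Ihh chondrocytes (%), with dotted lines at the shares over all 11293 genes, 11.6% and 14%. Collagen modification, glycolysis and hypoxia, and the resting and articular genes reach farthest to the right. The chondrocyte transcription factors reach farthest to the left. The lists were chosen with earlier results of these data known.

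Markers of other cells were found in Ihh chondrocytes, and some of their sums differed between the groups. Sums are given in CPM before scaling between preparations, and calls are to be read beside the 14% risen and 11.6% fallen over all genes. The 3 basophil markers summed to 384 and 71.8 CPM in Control Ihh chondrocytes and to 2.86 and 1.44 CPM in Fracture, and all 3 fell. The 6 erythroid markers summed to 13.5 and 101 CPM in Control and to 1324 and 447 CPM in Fracture, and 4 of 5 tested rose. The 5 endothelial markers summed to 13.5 to 70.9 CPM, 3 of them rising, the 5 fibroblast markers to 7.12 and 4.35 CPM against 67.5 and 58.5 CPM, and the 4 marrow stroma markers to 181 CPM in Control 1 and 32.1 to 38.4 CPM elsewhere. The 3 smooth muscle markers summed to 83.2, 1.45, 15.8 and 22.3 CPM, the 7 neutrophil markers to 4.35 to 31.5 CPM and the 8 of macrophages and osteoclasts to 86.9 to 99.1 CPM, nearly all Ctsk, with C1qa and C1qb at 0. The 5 osteoblast markers were the largest, at 5558 and 3712 CPM in Control and 11780 and 10850 CPM in Fracture, of which Col1a1 and Bglap made most. Of 3 marrow stroma markers tested, 1 rose and 2 fell, and of 5 osteoblast markers 2 rose and 2 fell. Of 3 fibroblast markers tested 1 rose, and of 3 neutrophil markers 1 fell. No marker of smooth muscle or of macrophages and osteoclasts was called. The part of any of these markers in the gene changes was not tested.

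Whether the fracture difference of Ihh chondrocytes differed from that of their neighbours was tested in a joint fit of both classes, with an interaction between class and group and a block for each preparation. Beside Ihh-free cells, 685 of 13247 genes differed (5.17%), 251 with a higher value in Ihh chondrocytes (1.89%) and 434 with a lower one (3.28%). Beside Col10a1 cells, 289 of 12453 genes did (2.32%), 204 higher (1.64%) and 85 lower (0.683%), and without Control preparation 1 or 2 the count was 555 or 747. With DESeq2 the counts were 337 and 119. Levels below are CPM before scaling between preparations.

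Several genes at the top of the rises rose more in Ihh chondrocytes than in Ihh-free cells. Rbp4 was at 12.7 and 14.5 CPM in Control Ihh chondrocytes but at 126 and 116 CPM in Control Ihh-free cells, and in Fracture at 803 and 736 CPM beside 718 and 591 CPM, a difference of the log2 changes of 3.33 ± 0.15 (adjusted p = 5.46e-08). C1qtnf3 gave 3.32 ± 0.16, from 21 and 14.5 CPM beside 176 and 181 CPM in Control to 1632 and 1825 CPM beside 1555 and 1528 CPM in Fracture. Sfrp5 (5.16 ± 0.56), Sbsn (2.80 ± 0.28) and Col3a1 (2.46 ± 0.29) were the others named. In Control Ihh chondrocytes Sfrp5 held 3 UMIs, all in preparation 1, and Sbsn and Col3a1 also held few. All 5 stood lower in Ihh chondrocytes than in Ihh-free cells in Control. In Fracture, Rbp4, C1qtnf3 and Sbsn stood above the Ihh-free cells and Sfrp5 and Col3a1 below them. Hhip differed as well (2.05, adjusted p = 0.0043), but as a smaller decrease: its log2 change was -3.20 in Ihh-free cells and -1.20 in Ihh chondrocytes, where it did not pass the test.

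In the opposite direction, Sgms2 stood at 1648, 957, 2481 and 2272 CPM in Ihh chondrocytes and at 144, 64.2, 712 and 700 CPM in Ihh-free cells, a difference of -2.03 ± 0.11 (adjusted p = 1.98e-07). Grb14, an adaptor of receptor kinases, Enpp2, which makes lysophosphatidic acid, Atf3, a stress transcription factor, and Nrgn gave differences of -1.86 to -1.75 and -1.98. Among immediate early and stress genes, 20 of 25 tested were lower in this term, beside 3.28% over all genes. Zfp36 gave -1.39, Fos -0.86 and Egr1 -0.88, with Fos at 2808 and 2886 CPM in Fracture Ihh-free cells beside 2260 and 1529 CPM in Control. Of 17 resting and articular genes tested, 9 were higher in the term, beside 1.89% over all genes. Prg4, which encodes lubricin of the joint surface, was among them at 338, 145, 50 and 35.9 CPM in Ihh-free cells, though the share of thinned Ihh-free cells with a UMI, 3.53% to 5.16%, overlapped between the groups. Clu (207, 120, 67.8 and 54.6 CPM), Cilp (202, 184, 59.3 and 57.7 CPM) and Wif1 (264, 243, 120 and 115 CPM) also stood lower in Fracture Ihh-free cells. The part of these changes of the Ihh-free class in the differences was not tested.

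Beside Col10a1 cells the differences were fewer. Ptgs2, with 4 UMIs in Control Ihh chondrocytes, gave 2.92 ± 0.56 (adjusted p = 0.019), from 1.498 and 0 CPM beside 16.5 and 17.6 CPM in Control to 83.4 and 96.5 CPM beside 211 and 203 CPM in Fracture. Hp, encoding haptoglobin, stood at 27, 16.7, 119 and 196 CPM in Ihh chondrocytes and at 18.7, 18.7, 20.2 and 20.7 CPM in Col10a1 cells, a difference of 2.65 ± 0.34. Serpina1b (3.58 ± 0.16), which fell less than in Col10a1 cells, Rbp4 (2.88 ± 0.15) and Mmp13 (2.62 ± 0.22), which was no more frequent in Ihh chondrocytes than in endothelial cells, were the others named. Fam132a, Tgfbi, Cited2 and Pank1 were lower by 1.08 to 1.53 on the log2 scale.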

How the data were processed

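Femoral stromal cells of unfractured (Control) and fractured (Fracture) mice were measured with 10x Chromium 3' v3 libraries. The authors deposited UMI counts per gene and cell, 1 long table for each of 8 libraries, not normalized. The submitters' processing notes name bcl2fastq 2.19.1.403, UMI-tools 1.0.0, STAR 2.7.3a, featureCounts 1.6.4 and the build mm10, whereas the study's methods describe STARsolo and EmptyDrops. The layout of the tables is that of UMI-tools, and whether the counting used strand is not given in the sources used here.

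Of 48903 barcodes, 45328 with 500 to 6000 genes and at most 25% mitochondrial UMIs were kept. Scrublet (scanpy 1.11.5) called 508 doublets, which were kept in the main results. Its automatic threshold marked under 0.5% of cells in 4 libraries, so leaving out the highest 6% of scores was added as an alternative. The 2 libraries of a preparation were summed, giving n = 2 per group. Nothing in the labels says that preparations came from separate animals, or that the 2 libraries of a preparation came from a single suspension. The p-values may therefore measure technical spread. The 367 genes whose symbols begin with U or n-R5, absent from both libraries of Control preparation 1, were left out of gene tables.

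Counts summed over cells were tested with edgeR 4.0.16 (R 4.3.3; TMM, filterByExpr, quasi-likelihood F test, Benjamini-Hochberg adjusted p under 0.05). CPM are TMM-scaled unless stated. Class-by-group terms had the preparation as a block. DESeq2 1.42.0 was an alternative. Shares were compared by two-sided exact permutation over preparations (scipy 1.17.1). Shares of cells with a UMI were taken after thinning each cell to 5000 or 2000 UMIs. Intervals and floors of 3 counts cover counting error only. The scripts were tested on simulated data.

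Named genes were the 12 largest rises and 12 largest falls among called genes whose preparations did not overlap and whose mean was at least 50 CPM, leaving out rule, mitochondrial, ribosomal, haemoglobin, Gm-numbered and other-cell marker genes. For class-by-group terms the 5 largest each way were named (1 is not reported here), for the levels beside other cartilage cells 20 and 8 genes, and members of the gene lists by role. The members and the lists were chosen with earlier results of these data known. Replicate numbers did not pair the samples: the difference between preparations 1 and 2 correlated at -0.0223 between the groups over 11298 genes.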

Additional observations from a re-analysis of the deposited data

Results flagged for a closer look

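The following genes differed, in a class-by-group term (edgeR), in their change from Control to Fracture between Ihh chondrocytes and a neighbouring class. Values are differences of log2 changes, Ihh chondrocytes minus the other class. Beside Ihh-free cartilage cells the higher values were 5.155 for Sfrp5, 3.335 for Rbp4, 3.319 for C1qtnf3, 2.802 for Sbsn and 2.458 for Col3a1. Sfrp5 held 3 UMIs in Control Ihh chondrocytes, and Sbsn and Col3a1 also held few there. The lower values were -2.027 for Sgms2, -1.981 for Nrgn, -1.856 for Grb14, -1.829 for Enpp2 and -1.751 for Atf3.

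Beside Col10a1 cartilage cells the higher values were 3.575 for Serpina1b, 2.925 for Ptgs2, 2.881 for Rbp4, 2.647 for Hp and 2.617 for Mmp13. The lower values were -1.529 for Fam132a, -1.398 for Tgfbi, -1.305 for Cited2 and -1.084 for Pank1.

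Cells outside the comparisons also held Ihh. In Fracture 939 cells under the cartilage threshold had at least 2 Ihh UMIs, against 19 in Control, and 457 and 448 of them in Fracture preparations 1 and 2 also held at least 10 Col10a1 UMIs per 10000.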

How the results depend on the processing

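All 24 genes named for the largest rises and falls kept their direction in all 19 alternatives. They kept their call in those with 2 preparations a group. Since they were chosen as the largest called changes, this is a description. The share of Ihh chondrocytes among cartilage cells (Fracture minus Control, percentage points) was -0.918 and changed sign with the rule applied to cells thinned to 5000 UMIs (0.0147) and with library 1 alone (0.762). It was largest with Col10a1 under 2 per 10000 (-6.38), was -2.688 with Col10a1 under 5, and leaving out a preparation gave -2.359 to 0.523. The share among all cells changed sign with Col10a1 under 2 per 10000 (-0.06805), an alternative chosen after seeing the data. So were leaving out the highest 6% of doublet scores and keeping the genes that Control preparation 1 lacks. The share with Top2a or Mki67 changed sign with the thinned rule (-1.696) and without thinning (-6.518), and that with Pth1r with library 2 alone (0.148), leaving out a preparation giving -2.719 to 0.312. The 2886 called genes became 1458 with DESeq2, 1573 with the thinned rule, 1327 with library 1 alone and 1521 with Col10a1 under 2 per 10000, and 1901 to 3371 without a preparation. With the replicate block the count was 2176, of which 2151 were shared. Class-by-group calls beside Ihh-free cells went from 685 to 337 with DESeq2 and 543 to 1018 without a preparation. Those beside Col10a1 cells went from 289 to 119 with DESeq2, 612 without the filter and 233 to 747 without a preparation. The cause of these changes was not tested. With 2 preparations a group, no share could give an exact p under 0.333, and 58 cells in Control preparation 2 limit the precision.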
